A study of Mus musculus with 4 samples.

Results

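Nfe2, Bach1 and Mafk encode transcription factors that meet on the same DNA sites. They were chosen by name, and all 3 have rows in the deposited tables, which hold 2982 genes in all. RNA-seq was done on G1E, a mouse erythroblast line derived from cells without GATA-1, the zinc finger factor of red cell, platelet and mast cell development. The groups were G1E cells with the mutant GATA-1 2RA, G1E cells with the mutant GATA-1 V205M, G1E cells with GATA-1 WT, and the G1E control, with 1 sample each. Every group, the control included, received β-estradiol. V205M is known to impair the contact between GATA-1 and its cofactor FOG-1, and what 2RA alters is left unsaid by the labels. The labels give neither the vector and promoter behind each GATA-1 form nor whether a group is 1 clone.

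The authors' 6 tables set the groups against each other in pairs and list a gene only past an adjusted p of 0.01 and a 2-fold change. Levels are in scaled reads: read counts that the authors divided by size factors and averaged per group. The tables show 1 count column behind GATA-1 2RA and GATA-1 WT, and 2 count columns behind GATA-1 V205M and the G1E control. No source used here tells whether the 2 columns are separate cultures or repeat runs, so they are shown side by side, and the levels, ratios and intervals given here do not take them as replicates. Recovered reads per count column ranged between 276064 and 2178397. They were summed over the genes with a level in that group, from 1931 in GATA-1 2RA to 2466 in the G1E control. The gene sets differ, so these sums do not compare depth alone. The shallowest column was in the G1E control, with the smallest size factor, 0.357. With 1 sample per group there is no replicate check and no p-value of a difference is given. The intervals below are exact 95% counting intervals of the pooled reads and cover counting error only, not the spread between cultures. Pooling weighs 2 count columns by depth, whereas the levels average them, so an interval need not be centred on the ratio beside it. For Bach1 against the G1E control the pooled ratios were 8.88 in GATA-1 2RA, 10.4 in GATA-1 V205M and 11.6 in GATA-1 WT. In bulk RNA, fewer expressing cells and less RNA per cell cannot be told apart. Of 13 erythroid marker genes, all 13 appeared in the tables, and the 11 with a level in every group summed to 6347 scaled reads in GATA-1 2RA, 5628 in GATA-1 V205M, 24391 in GATA-1 WT and 4898 in the G1E control. Gene by gene against the control, 1 was listed as higher and 3 as lower in GATA-1 2RA. In GATA-1 V205M 3 were higher and 4 lower, and in GATA-1 WT 10 were higher and 0 lower. Of 11 mast cell marker genes, 5 appeared, at summed levels of 181 in GATA-1 2RA, 995 in GATA-1 V205M, 4.41 in GATA-1 WT and 3108 in the G1E control. In GATA-1 WT, Cpa3, Ms4a2, Tpsab1 and Gzmb were each at 1 read. No recovered count of any gene was below 1 read in any column, so whether a gene at 1 read was expressed cannot be told. Cpa3 alone gave 2795 of the control sum, against 14.6 in GATA-1 V205M. Ms4a2, Tpsab1 and Hdc were listed as higher in GATA-1 V205M than in the control, and Cpa3 and Gzmb as lower. Against the control, GATA-1 2RA had 1 higher and 3 lower, and GATA-1 WT 0 higher and 5 lower. Of all tested genes, 8.15%, 7.46% and 13.0% were listed in these 3 pairs. The part of these shifts in cell identity in the results below was not tested.

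NF-E2 is a pair of proteins: p45, made by Nfe2 and largely restricted to blood cells, and a small Maf such as MafK. Small Mafs bind DNA but lack an activation domain of their own, so their partner sets the outcome. With p45 the pair activates globin and platelet genes, and with Bach1 it represses such genes and those of heme breakdown and antioxidant defence. Heme binds Bach1 and releases it from DNA. Nrf2, made by Nfe2l2, is a relative of p45 that activates antioxidant genes with the same small Mafs.

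In the GRCm38 annotation (GENCODE M21), Nfe2 (ENSMUSG00000058794.12) lies on the minus strand of chromosome 15 at 103248212 to 103258403. Bach1 (ENSMUSG00000025612.5) lies on the plus strand of chromosome 16 at 87698945 to 87733346, and Mafk (ENSMUSG00000018143.10) on the plus strand of chromosome 5 at 139791513 to 139802653. RefSeq promoter sequences (GRCm38.p6) were found for 2 of the 3 genes, Bach1 and Mafk, which were both higher with each GATA-1 form. The 250 bases before each RefSeq start are shown for this reason, 5′ to 3′ on the plus strand, at chr16:87698704-87698953 for Bach1 and chr5:139791286-139791535 for Mafk. Capitals mark, on either strand, the Maf core TGCTGA and the GATA motif, searched as AGATAA and AGATAG with A in front and as TGATAA and TGATAG with T in front.
Bach1: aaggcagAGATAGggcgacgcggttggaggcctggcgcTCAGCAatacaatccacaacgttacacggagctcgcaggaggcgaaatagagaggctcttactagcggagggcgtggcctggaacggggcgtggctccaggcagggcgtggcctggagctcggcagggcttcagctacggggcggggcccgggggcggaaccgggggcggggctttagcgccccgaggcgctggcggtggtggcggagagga
Mafk: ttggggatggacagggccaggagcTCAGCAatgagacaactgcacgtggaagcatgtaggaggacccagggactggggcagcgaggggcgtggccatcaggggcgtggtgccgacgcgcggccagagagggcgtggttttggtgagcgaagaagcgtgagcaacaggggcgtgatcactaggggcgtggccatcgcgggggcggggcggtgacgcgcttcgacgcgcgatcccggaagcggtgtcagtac

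The Bach1 window held 1 GATA match, 243 to 238 bases before the start, and the Mafk window held 0; 26.5% of all 32851 promoter windows of this length held at least 1. Each window held 1 Maf core, on the minus strand, at 212 to 207 bases before the start in Bach1 and 226 to 221 in Mafk. That core was in 16.1% of all windows. The NF-E2 core TGANTCA, found in 6.75% of windows, was in neither. The CACC box CCNCNCCC, the motif class bound by Klf1, matched 7 times in Bach1 and 6 times in Mafk, with overlapping matches counted. At least as many matches stood in 2.98% and 4.47% of all windows, and both windows were rich in G and C, at 69.2% in Bach1 and 67.2% in Mafk against a median of 52.4%. These matches describe the letters of the windows and not bound sites.

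Over the 6 tables, the 3 genes are listed 11 times out of 18. For GATA-1 WT against the G1E control, 13.0% of the 12931 tested genes were listed, 8.17% as higher, and 2 of the 3 genes were listed, both higher. For GATA-1 V205M against the control it was 8.15%, with 4.83% higher and 3.32% lower, and all 3 genes were listed, 2 higher and 1 lower. For GATA-1 2RA against the control it was 7.46%, with 4.86% higher, and 2 of the 3 genes were listed, both higher. For GATA-1 V205M against GATA-1 WT, 9.36% of the tested genes were listed, 5.65% as lower, and 2 of the 3 genes were listed, both lower. For GATA-1 2RA against GATA-1 WT it was 7.38%, with 4.04% lower, and 1 of the 3 genes, lower. For GATA-1 2RA against GATA-1 V205M it was 6.23%, with 3.60% higher, and 1 of the 3 genes, higher. The genes were proposed with these results known, so the counts describe the genes and are no test of them.

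Nfe2, the p45 subunit, was the only one of the 3 genes whose level in the mutants stood below that of the G1E control. It had 238 scaled reads in GATA-1 2RA, 109 in GATA-1 V205M, 528 in GATA-1 WT and 381 in the G1E control. The 2 count columns of GATA-1 V205M gave 118 and 100.2 scaled reads, and those of the G1E control 389 and 372. The 2 columns thus lay close together in these groups, whereas GATA-1 2RA and GATA-1 WT have 1 column each and show no spread. No column of one group reached the level of another group, but the share of all genes for which this holds was not computed. GATA-1 V205M had 3.49-fold less Nfe2 than the G1E control (interval 3.01 to 4.10) and 4.85-fold less than GATA-1 WT (4.17 to 5.59). GATA-1 2RA had 2.22-fold less than GATA-1 WT (1.95 to 2.53) and 2.18-fold more than GATA-1 V205M (1.83 to 2.57). The authors' tables list Nfe2 in these 4 pairs. Scaling by the summed level brought GATA-1 2RA against GATA-1 WT within 2-fold (-0.73 on the log2 scale), and scaling by the median ratio did so for GATA-1 2RA against GATA-1 V205M (0.91). GATA-1 2RA stood at 0.625 of the G1E control (0.539 to 0.708), a change within the authors' 2-fold limit and not listed, though past 2-fold when scaled by the median ratio (-1.09 on the log2 scale). GATA-1 WT stood at 1.39 times the G1E control (1.23 to 1.53), also not listed, and this direction turned to -0.26 and -0.42 on the log2 scale when the groups were scaled by their summed level or by their median ratio.

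Bach1, the heme-sensing repressor, was low in the G1E control and of like size with every GATA-1 form. It had 373 scaled reads in GATA-1 2RA, 435 in GATA-1 V205M, 487 in GATA-1 WT and 38.1 in the G1E control. The count columns of GATA-1 V205M gave 455 and 416 scaled reads, and those of the G1E control 45.4 and 30.8, from 53 and 11 reads. Each form thus stood far above both control columns. Against the G1E control the level was 9.79-fold in GATA-1 2RA (6.84 to 11.7), 11.4-fold in GATA-1 V205M (8.07 to 13.6) and 12.8-fold in GATA-1 WT (8.99 to 15.2). The authors list Bach1 in these 3 pairs, which share the control, and in no pair of 2 GATA-1 forms. The level in GATA-1 2RA was 0.765 of that in GATA-1 WT (0.683 to 0.856) and 0.857 of that in GATA-1 V205M (0.766 to 0.951), and GATA-1 V205M stood at 0.893 of GATA-1 WT (0.814 to 0.986). Both ratios to GATA-1 WT turned to the other direction when the groups were scaled by their summed level, at 0.030 on the log2 scale for GATA-1 2RA and 0.27 for GATA-1 V205M, and that of GATA-1 V205M also did by the median ratio, at 0.25.

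Mafk, the small Maf that either factor can pair with, was lowest in the G1E control and graded among the GATA-1 forms. It had 198 scaled reads in GATA-1 2RA, 138 in GATA-1 V205M, 304 in GATA-1 WT and 41.4 in the G1E control. The count columns of GATA-1 V205M gave 145 and 131 scaled reads, and those of the G1E control 43.7 and 39.2. Both GATA-1 V205M columns lay above both control columns and below the levels of GATA-1 2RA and GATA-1 WT. The last 2 groups have 1 column each, and the share of all genes separated in this way was not computed. Against the G1E control the level was 4.78-fold in GATA-1 2RA (3.53 to 6.18), 3.34-fold in GATA-1 V205M (2.48 to 4.33) and 7.34-fold in GATA-1 WT (5.50 to 9.39), and all 3 pairs are listed. GATA-1 V205M had 2.20-fold less Mafk than GATA-1 WT (1.89 to 2.54), which is listed too but came within 2-fold when the groups were scaled by their summed level (-0.71 on the log2 scale) or by their median ratio (-0.72). The ratio of GATA-1 2RA to GATA-1 WT, 0.651 (0.559 to 0.756), and that of GATA-1 2RA to GATA-1 V205M, 1.43 (1.21 to 1.68), stayed within 2-fold and are not listed.

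**Figure D1:**
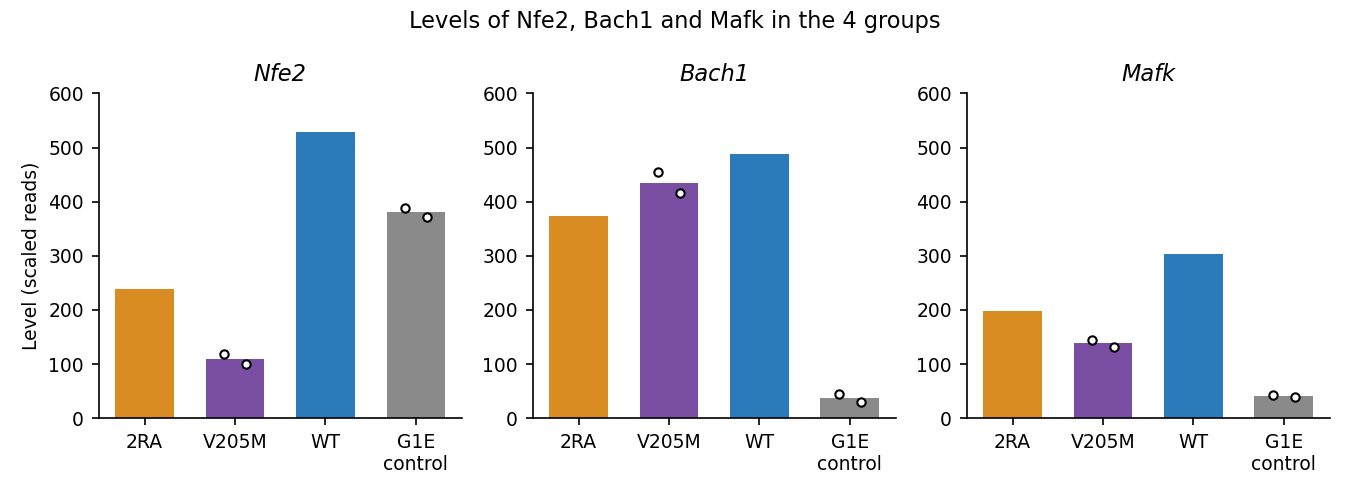
Level of each gene in scaled reads (bars) in the 4 groups, with the 2 count columns of GATA-1 V205M and the G1E control as open circles. Bach1 is at 38.1 in the G1E control and between 373 and 487 in the GATA-1 forms, while Nfe2 is lowest in GATA-1 V205M, at 109.

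Part of the Mafk signal is uncertain. Its last 169 bases overlap the end of Tmem184a, a membrane protein gene on the opposite strand at 139802485 to 139819917, and no source used here says that reads were counted by strand. Tmem184a had 246 scaled reads in GATA-1 2RA, 12.3 in GATA-1 V205M, 591 in GATA-1 WT and 2.68 in the G1E control. It was thus high in the same 2 groups in which Mafk was highest. In GATA-1 V205M, where the whole Tmem184a level was 12.3 scaled reads, Mafk was at 138 against 41.4 in the G1E control. The share of Mafk reads from the overlap in GATA-1 2RA and GATA-1 WT was not tested. No annotated gene overlaps Nfe2 or Bach1. Within 100 kb, Copz1, a coat protein gene of vesicle transport 14310 bases from Nfe2, had 758 scaled reads in GATA-1 2RA, 590 in GATA-1 V205M and 1656 in GATA-1 WT, and was listed as lower in both mutants than in GATA-1 WT. Zfp385a, 55491 bases from Nfe2, had 11.2 in GATA-1 V205M and 43.4 in the G1E control. Psmg3, 20938 bases from Mafk, had 129.9 in GATA-1 V205M and 42.8 in the G1E control. Of the 3 annotated genes within 100 kb of Bach1, 0 were in the tables.

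**Figure D2:**
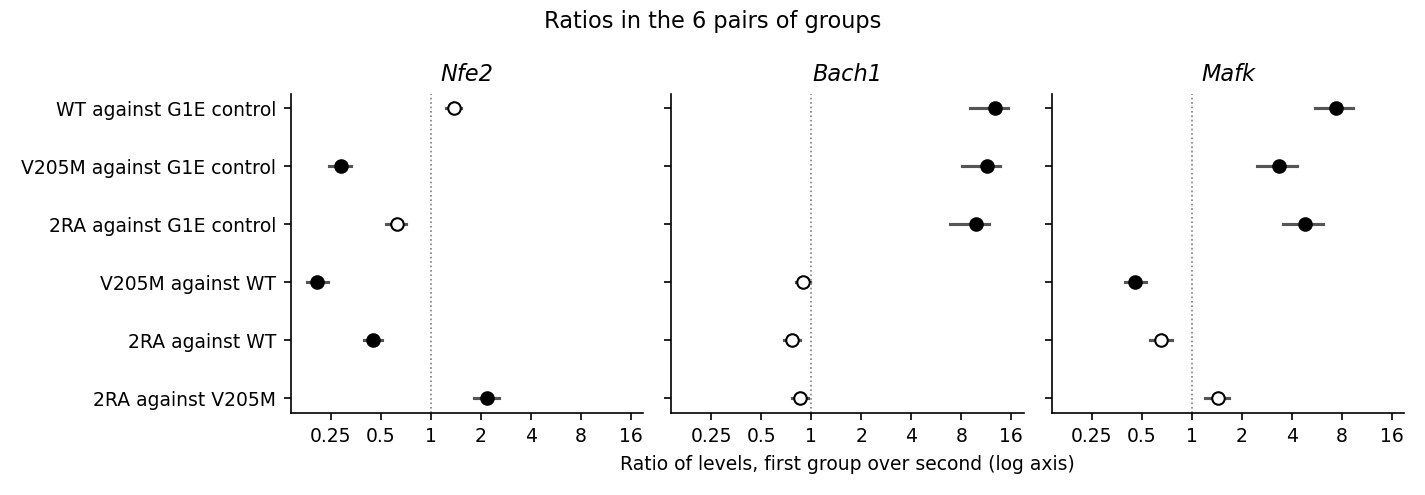
Ratio of levels in each of the 6 pairs (log axis), with the exact 95% counting interval of the pooled reads as a line. Filled circles are pairs in which the authors list the gene, open circles pairs in which they do not. Bach1 is filled in the 3 pairs against the G1E control alone, and Nfe2 is left of 1 in every mutant pair against GATA-1 WT or the control.

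Because both factors draw on the small Mafs, the balance of the 3 mRNAs was computed within each group, where gene length and any rescaling of a whole group cancel from the change. Bach1 RNA relative to Nfe2 RNA was 15.7-fold higher in GATA-1 2RA than in the G1E control (95% interval 11.2 to 21.8, from Poisson variances on the log scale), 39.9-fold in GATA-1 V205M (28.5 to 55.8) and 9.22-fold in GATA-1 WT (6.70 to 12.7). With either control column alone these were 13.4 and 19.0 for GATA-1 2RA, 34.2 and 48.3 for GATA-1 V205M, and 7.90 and 11.2 for GATA-1 WT. The forms share the control, so the choice of column cannot change their order. Directly between forms, the Bach1 to Nfe2 ratio was 4.33-fold higher in GATA-1 V205M than in GATA-1 WT (3.64 to 5.15) and 1.70-fold higher in GATA-1 2RA than in GATA-1 WT (1.44 to 2.01). GATA-1 2RA stood at 0.392 of GATA-1 V205M (0.322 to 0.479). Bach1 alone differed among the forms by at most 1.31-fold in level, and Nfe2 by up to 4.85-fold.

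Mafk relative to Nfe2 moved the same way, by 7.64-fold in GATA-1 2RA (5.43 to 10.8), 11.7-fold in GATA-1 V205M (8.23 to 16.5) and 5.29-fold in GATA-1 WT (3.83 to 7.30), each against the G1E control. Bach1 relative to Mafk moved least, by 2.05-fold in GATA-1 2RA (1.33 to 3.16), 3.42-fold in GATA-1 V205M (2.24 to 5.25) and 1.74-fold in GATA-1 WT (1.14 to 2.66). Per kilobase of merged exons in GENCODE M21, the level of Nfe2 was 79.6 in GATA-1 2RA, 36.5 in GATA-1 V205M, 177 in GATA-1 WT and 127 in the G1E control. The level of Bach1 per kilobase was 60.4 in GATA-1 2RA, 70.4 in GATA-1 V205M, 78.9 in GATA-1 WT and 6.16 in the G1E control. That of Mafk was 50.7 in GATA-1 2RA, 35.4 in GATA-1 V205M, 78.0 in GATA-1 WT and 10.6 in the G1E control. On this scale Nfe2 was the highest of the 3 in GATA-1 2RA, GATA-1 WT and the G1E control, and Bach1 was the highest in GATA-1 V205M, at 1.93 times Nfe2. The transcripts these cells use were not determined, so the levels per kilobase depend on the annotated exon length of 2.99 kb for Nfe2, 6.18 kb for Bach1 and 3.90 kb for Mafk.

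**Figure D3:**
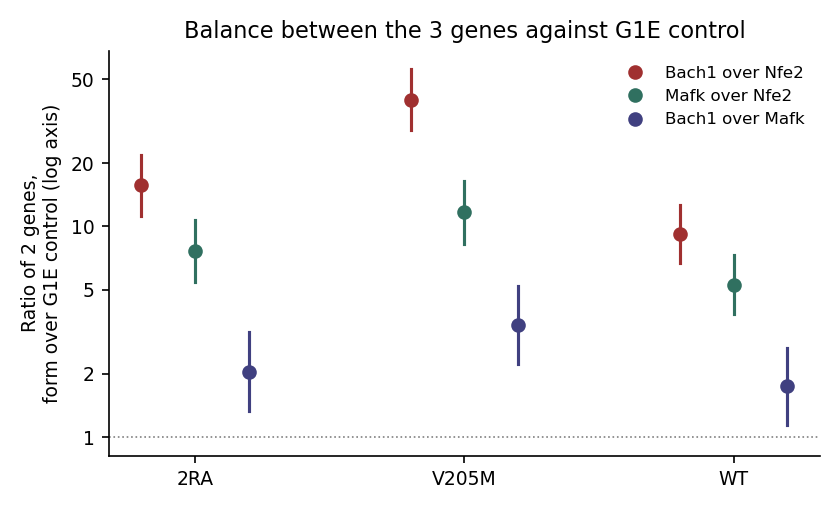
Change of the ratio between 2 of the 3 genes in each GATA-1 form over the G1E control (log axis), with 95% counting intervals as lines. Bach1 over Nfe2 is 15.7 in GATA-1 2RA, 39.9 in GATA-1 V205M and 9.22 in GATA-1 WT, and Bach1 over Mafk is the smallest of the 3 in each form.

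Beside 2982 of all 12931 tested genes, 1 of the 10 other genes of the CNC and Maf family that were looked up was in the tables. This was Nfe2l2, the gene of Nrf2. It had 784 scaled reads in GATA-1 2RA, 625 in GATA-1 V205M, 853 in GATA-1 WT and 299 in the G1E control. It was listed as higher in all 3 forms than in the control, at 2.62-fold in GATA-1 2RA, 2.09-fold in GATA-1 V205M and 2.85-fold in GATA-1 WT. The pooled reads gave lower ratios, at 2.37 in GATA-1 2RA (2.13 to 2.63), 1.88 in GATA-1 V205M (1.70 to 2.09) and 2.57 in GATA-1 WT (2.32 to 2.86). That of GATA-1 V205M was thus within 2-fold. The control columns were 360 and 238 scaled reads, a wider gap than for Nfe2 or Mafk, and both lay below every form. The small Mafs Maff and Mafg, as well as Bach2, Nfe2l1 and Nfe2l3, were not in the tables, so each was either within the authors' limits, not tested or not analysed here. Of 10 regulators of Bach1 and Nrf2, 1 was present, beside the same share of all tested genes. This was Hmmr, a hyaluronan receptor that in human cells has been tied to export of Bach1 from the nucleus, also known as a gene of dividing cells. It had 359 scaled reads in GATA-1 2RA, 358 in GATA-1 V205M, 1103 in GATA-1 WT and 196 in the G1E control. GATA-1 WT against the control had it listed as higher (log2 ratio 2.49), and both mutants against GATA-1 WT as lower (log2 ratio -1.62 in each).

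Of 30 antioxidant and heme response genes, which Bach1 represses or Nrf2 activates in various cells, 15 were in the tables, beside 2982 of all 12931 tested genes. The 15 did not move as a block. Against the G1E control, GATA-1 2RA had 3 higher and 4 lower, GATA-1 V205M 2 higher and 3 lower, and GATA-1 WT 3 higher and 1 lower. That was 23.3%, 16.7% and 13.3% of the list, beside 7.46%, 8.15% and 13.0% of all tested genes. The median log2 ratio of those listed was -1.24 for GATA-1 2RA, -1.03 for GATA-1 V205M and 1.503 for GATA-1 WT, beside 1.24, 1.11 and 1.24 over all listed genes of these pairs. Against GATA-1 WT, GATA-1 2RA had 2 higher and 4 lower (median -1.23, all listed genes -1.07), and GATA-1 V205M 4 higher and 4 lower (median -0.10, all listed genes -1.16). GATA-1 2RA against GATA-1 V205M gave 3 higher and 3 lower (median 0.13, all listed genes 1.19). In these 3 pairs 20%, 26.7% and 20% of the list were listed, beside 7.38%, 9.36% and 6.23% of all tested genes.

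Blvrb, the biliverdin reductase that acts after heme oxygenase, had 1343 scaled reads in GATA-1 2RA, 1566 in GATA-1 V205M, 7133 in GATA-1 WT and 779 in the G1E control. The catalase gene Cat had 979 in GATA-1 2RA, 524 in GATA-1 V205M, 1424 in GATA-1 WT and 392 in the G1E control. Both were thus highest in GATA-1 WT. Fth1, the ferritin heavy chain, had 2382 in GATA-1 2RA, 8597 in GATA-1 V205M, 2890 in GATA-1 WT and 13492 in the G1E control, and was listed as lower in GATA-1 2RA and GATA-1 WT than in either other group. Prdx1, a peroxidase that removes hydrogen peroxide, was highest in GATA-1 V205M at 1382 scaled reads, against 687 in GATA-1 2RA, 273 in GATA-1 WT and 447 in the G1E control. The transporter Abcc1, which exports glutathione conjugates, was highest in GATA-1 2RA, with 734 scaled reads there, 232 in GATA-1 V205M, 337 in GATA-1 WT and 208 in the G1E control. Srxn1, which repairs oxidised peroxiredoxins, had 120.0 in GATA-1 2RA, 44.5 in GATA-1 V205M and 27.7 in the G1E control. Each of the 4 groups thus held the highest level of at least 1 of these genes. The heme oxygenase gene Hmox1, the best known target of Bach1 and named here after its absence was seen, was in none of the 6 tables.

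**Figure D4:**
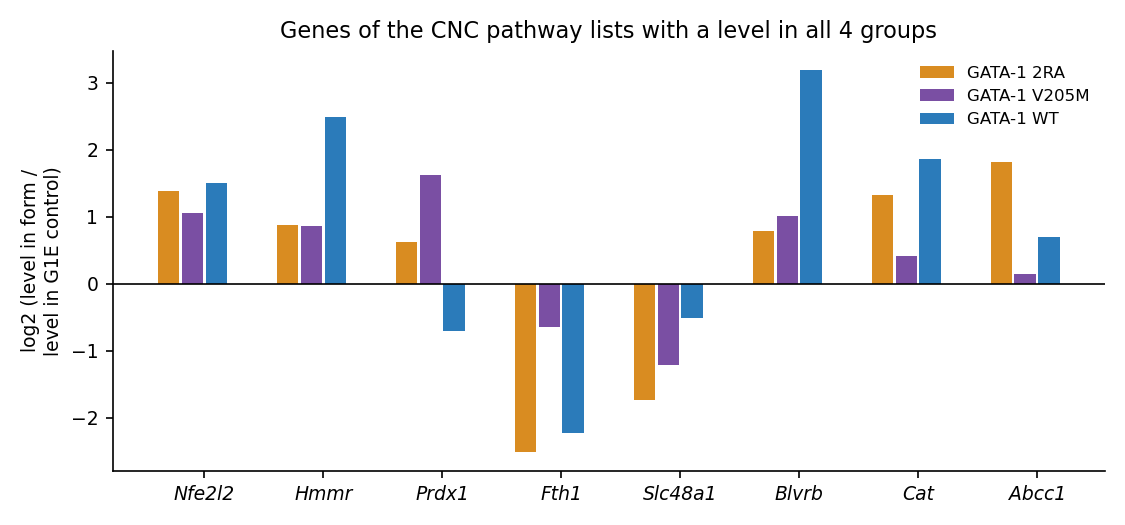
Log2 ratio of the level in each GATA-1 form to that in the G1E control for the 8 genes of the family, regulator and antioxidant lists with a level in all 4 groups, the heme transporter Slc48a1 among them. Nfe2l2 lies above 0 in every form and Fth1 and Slc48a1 below 0, whereas Prdx1 is above 0 in the mutants and below 0 in GATA-1 WT.

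Of 12 globin, heme and related erythroid genes, among them known targets of NF-E2, 9 were in the tables, beside 2982 of all 12931 tested genes. All 9 were listed as higher for GATA-1 WT against the G1E control (median log2 ratio 4.50, all listed genes 1.24). That was 75% of the list, beside 13.0% of all tested genes. In the mutants against GATA-1 WT, 8 were listed as lower and 0 as higher in each, with a median of -4.50 for GATA-1 2RA and of -6.08 for GATA-1 V205M, beside -1.07 and -1.16 over all listed genes. The listed share was 66.7% in each mutant, beside 7.38% of all tested genes for GATA-1 2RA and 9.36% for GATA-1 V205M. Against the G1E control the mutants split, with 2 higher and 2 lower in GATA-1 2RA and 2 higher and 3 lower in GATA-1 V205M. That was 33.3% and 41.7% of the list, beside 7.46% and 8.15% of all tested genes. Hbb-b1, an adult beta-globin, had 2342 scaled reads in GATA-1 2RA, 91.6 in GATA-1 V205M, 39108 in GATA-1 WT and 238 in the G1E control, an order of the mutants like that of Nfe2. Its near-identical copy Hbb-b2, between which the split of reads is uncertain, had 141 in GATA-1 2RA, 19.3 in GATA-1 V205M, 4362 in GATA-1 WT and 35.5 in the G1E control. The alpha-globin Hba-a1 had 32.9 in GATA-1 2RA, 38.9 in GATA-1 V205M, 12001 in GATA-1 WT and 1291 in the G1E control, and its near-identical copy Hba-a2 had 7.86 in GATA-1 2RA, 19.0 in GATA-1 V205M, 2619 in GATA-1 WT and 58.9 in the G1E control. Alas2, the first enzyme of erythroid heme synthesis, had 2.14 in GATA-1 2RA, from 3 reads, 34.7 in GATA-1 V205M, 1154 in GATA-1 WT and 6.54 in the G1E control. In Alas2 the mutants thus stood in the other order, and in Hba-a1 they were not listed against each other. Hbb-bh1, an embryonic globin, had 1.79 in GATA-1 V205M, 51.0 in GATA-1 WT and 2.26 in the G1E control.

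Of 17 platelet genes, several of which need p45 in mice, 5 were in the tables, beside 2982 of all 12931 tested genes. Tubb1, the platelet beta-tubulin, had 0.931 scaled reads in GATA-1 V205M, 63.6 in GATA-1 WT and 1.83 in the G1E control. GATA-1 V205M and the control had 1 read per column, the lowest count recovered in any column. Tbxas1, the thromboxane synthase, had 42.9 in GATA-1 2RA, against 2.86 in GATA-1 V205M. Rab27b, a GTPase of platelet granules, had 1.93 in GATA-1 V205M against 21.7 in the G1E control. Lims1, an adaptor at integrin contacts, had 39.7 in GATA-1 V205M against 97.0 in GATA-1 WT. Tbxas1, Rab27b and Lims1 were each listed in 1 pair that includes GATA-1 V205M. Their 2 known levels are therefore those that passed the authors' limits, and no order over the 4 groups can be read from them. Nbeal2, needed for alpha-granules, had 114 in GATA-1 2RA, 47.6 in GATA-1 V205M, 27.7 in GATA-1 WT and 136 in the G1E control.

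The pattern of each gene over the 4 groups was set against 1123 other genes with a level in every group and at least 50 scaled reads in the highest. Likeness was the root mean square difference of log2 (level + 1), with each gene centred on its mean, over 4 groups of 1 sample each. Closest to Mafk were Ddit3, a stress-induced transcription factor (0.062), Arpc1a, a subunit of the Arp2/3 actin complex (0.082), Tbc1d24 (0.113), the flippase Atp8a1 (0.119) and the exporter Abcc5 (0.134). Closest to Nfe2 were Glns-ps1 (0.16), the sialyltransferase St3gal1 (0.191), Zfand2b (0.206), the ferrireductase Steap3 (0.215) and Fam109b (0.221). Bach1 had more distant neighbours: Zrsr1 (0.26), Nomo1 (0.267), Soat2, an enzyme of cholesterol esterification (0.378), Specc1 (0.43) and Padi3 (0.455). Steap3 had 1032 scaled reads in GATA-1 2RA, 408 in GATA-1 V205M, 1510 in GATA-1 WT and 1352 in the G1E control. Its likeness to Nfe2 over these groups follows from how it was picked. Ddit3 had 194 in GATA-1 2RA, 123 in GATA-1 V205M, 290.3 in GATA-1 WT and 41.2 in the G1E control. Among the 3 genes themselves, Bach1 and Mafk lay 0.63 apart, Mafk and Nfe2 1.33 apart, and Bach1 and Nfe2 1.94 apart.

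**Figure D5:**
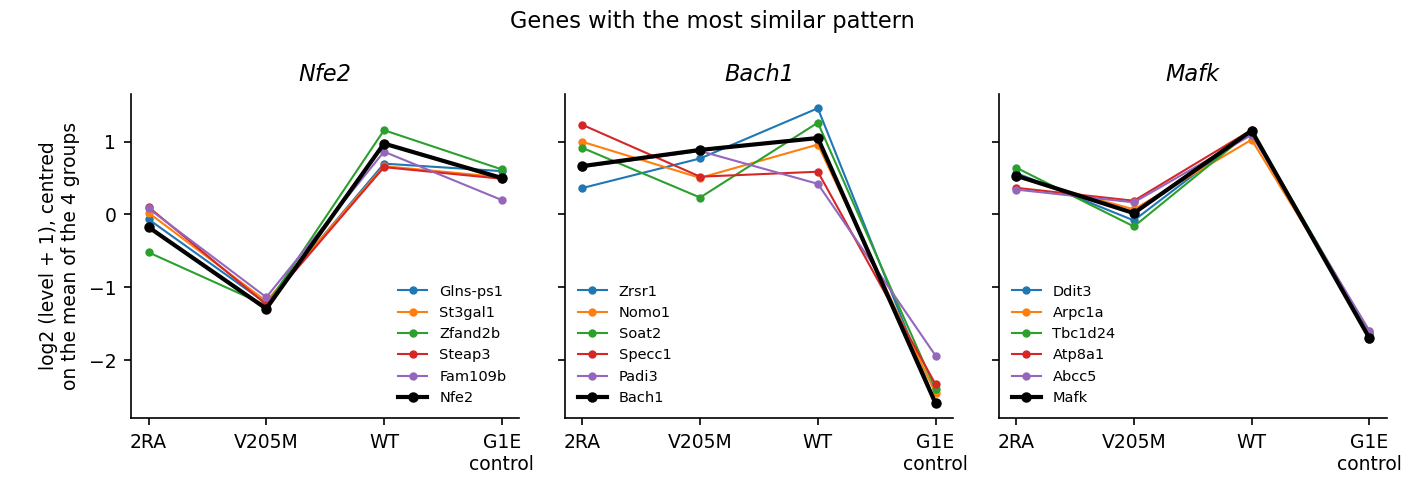
Centred log2 (level + 1) over the 4 groups for each of the 3 genes (black) and its 5 most similar genes (colours). Mafk and its neighbours nearly coincide, at differences of 0.062 to 0.134, while those of Bach1 spread more among the GATA-1 forms, at 0.26 to 0.455.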

How the data were processed

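Bulk RNA-seq of 4 groups with 1 sample each was taken from 6 deposited tables. The submitters' processing notes name mm10, deepTools, Cuffdiff, Cufflinks and TopHat, and no source used here says which tool made the tables. The authors' signal is a mean count per group after division by size factors, as the values show: 100% of levels were whole reads times 1 or 2 steps, within 1e-06. The deposited ratio and log2 value compare 2 group means, and the deposited p-value comes with an adjusted one over 12931 tested genes. It may treat count columns as replicates. Recovered reads gave size factors of 0.357 to 1.59 and exact Clopper-Pearson intervals (scipy 1.17.1). Ratios used no pseudocount. edgeR 4.0.16 was run on recovered reads as an alternative, after a check on simulated data. Coordinates are from GENCODE M21 and promoters from RefSeq.

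Members and the 7 gene lists were chosen with earlier results of these data known. Named were the 3 genes; every listed gene of the family and regulator lists; the 6 genes with the largest change in each target list (5 where only 5 were present); and the 5 most similar patterns. Hmox1, Copz1, Zfp385a, Psmg3, Tmem184a, the named mast cell genes and motif letters were added after values were seen. All libraries are single samples, so no batch could be examined.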

Additional observations from a re-analysis of the deposited data

How the results depend on the processing

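Of 138 recomputed values, 109 stayed within their counting interval or within 1.5 times the main count, 29 moved and 0 listed changes turned direction. Over the 1157 genes with a level in all 4 groups, scaling by the summed level shifted GATA-1 WT against the control by 0.73, GATA-1 V205M by 0.31 and GATA-1 2RA by 0.32 (log2), and scaling by the median ratio by 0.90, 0.21 and 0.41. These genes were listed for their changes, so real change and scaling error cannot be told apart in these shifts. In log2 ratios, scaling by the summed level gave for GATA-1 WT against the control -0.26 (Nfe2), 2.94 (Bach1) and 2.14 (Mafk), and by the median ratio -0.42, 2.78 and 1.98. For Nfe2 the summed level gave -2.11 in GATA-1 V205M and -1.0 in GATA-1 2RA against the control, and the median ratio -1.09 in GATA-1 2RA. For GATA-1 V205M against GATA-1 WT the summed level gave -1.85 (Nfe2), 0.27 (Bach1) and -0.71 (Mafk), and the median ratio -1.86, 0.25 and -0.72. For GATA-1 2RA against GATA-1 WT the summed level gave -0.73 (Nfe2), 0.030 (Bach1) and -0.20 (Mafk), and for GATA-1 2RA against GATA-1 V205M the median ratio gave -0.44 for Bach1. With the summed level, 5 of 6 group pairs kept their order in Nfe2, 4 in Bach1 and 6 in Mafk. With the second control column alone, Bach1 was at 3.60 in GATA-1 2RA, 3.82 in GATA-1 V205M and 3.99 in GATA-1 WT, from 11 control reads. The Bach1 to Nfe2 balance, with alternatives chosen after seeing the data, stayed within its intervals with either control column and with a pseudocount of 10. Above 4-fold, the pathway lists kept 5 genes (of 12) for GATA-1 2RA and 3 (of 13) for GATA-1 V205M against the control, 10 (of 19) for GATA-1 V205M and 8 (of 16) for GATA-1 2RA against GATA-1 WT, and 4 (of 11) between the mutants, as a stricter limit must. For GATA-1 WT against the control, edgeR's quasi-likelihood fit on the recovered reads gave log2 ratios of 0.46 (Nfe2), 3.54 (Bach1) and 2.83 (Mafk). It used the authors' size factors and takes the 2 count columns of a group as replicates. Its counts of genes called, among the 138 values, were made on the 1157 genes, which the authors had already listed in some pair. Their nearness to the authors' counts was thus largely built in, and whether the same genes were called was not compared. No paired analysis was possible because each group is 1 sample. Depth limits Bach1 and Mafk most in the control, at 64 and 65 reads.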
